A study of Mus musculus with 6 samples.

Results

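The genes described here are 10 inhibitors that act back on mitogen-activated protein (MAP) kinase signalling, namely the dual-specificity phosphatases Dusp1, Dusp2, Dusp4, Dusp5, Dusp6, Dusp10 and Dusp16, the Sprouty genes Spry1 and Spry2, and the Spred gene Spred1. They were chosen by gene name from the 54532 genes of the count table, where each of the 10 had an entry. All 10 were among the 14522 genes with enough reads to be tested, and each had at least 107 counts in every library, so none passed the filter through 1 group alone. RNA-seq was performed on macrophages of infarcted hearts of C57BL/6 mice aged 12 weeks, taken 7 days after permanent coronary occlusion, with 3 libraries from ITGA5 fl/fl mice and 3 from Myα5KO mice. Both groups carried Itga5, the gene of the α5 integrin chain, flanked by loxP sites. The Myα5KO mice carried LyzM-Cre in addition (genotype ITGA5 fl/fl + LyzM-Cre), and the control mice had no Cre. The lysozyme M promoter that drives this Cre is active in all myeloid cells, so deletion is not limited to macrophages, and libraries of mice with the Cre alone were not analysed here. Cells were prepared with magnetic beads, first by removal of Ly6G+ cells and then by retention of CD11b+ cells. The methods of the study describe hearts of individual mice, but the labels do not tie a library to a mouse, and p-values measure the spread between these libraries.

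MAP kinases are the last of a chain of kinases that carries signals from growth factor receptors, cytokine receptors and integrins to the nucleus, and they are active only while phosphorylated on a threonine and a tyrosine. The DUSP family removes both phosphates, and several of its genes are switched on by the very pathways that their products turn off. Sprouty and Spred proteins act higher up, where they restrain the activation of Ras and Raf. In macrophages some of these inhibitors limit how strongly and how long inflammatory signals act. The p38, Erk1/2 and Erk5 MAP kinases were examined in the study as possible routes downstream of ITGA5, and the comparison below asks how the transcripts of their inhibitors differed between Myα5KO and ITGA5 fl/fl macrophages.

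The genomic sequence just upstream of Dusp1 and Dusp5 is shown because these were the 2 most abundant of the 10, and because their promoters hold short motifs bound by signal-dependent factors. Both stretches are from RefSeq (build GRCm38.p6, which is also the build of the count table) and are written 5′ to 3′ on the strand of the gene, ending at the base before the gene start given with the counts. The Dusp1 stretch is chr17:26508520-26508722 on the minus strand and the Dusp5 stretch is chr19:53528895-53529108 on the plus strand. Capitals mark the motifs found by a search of both strands, which are a cyclic AMP response element (CRE) followed by an E-box in Dusp1 and a pair of adjoining CArG boxes, the motif of serum response factor, in Dusp5.
Dusp1: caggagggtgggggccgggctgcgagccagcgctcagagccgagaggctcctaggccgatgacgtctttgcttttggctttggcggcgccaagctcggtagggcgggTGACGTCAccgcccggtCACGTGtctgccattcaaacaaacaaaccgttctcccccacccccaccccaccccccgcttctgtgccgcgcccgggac
Dusp5: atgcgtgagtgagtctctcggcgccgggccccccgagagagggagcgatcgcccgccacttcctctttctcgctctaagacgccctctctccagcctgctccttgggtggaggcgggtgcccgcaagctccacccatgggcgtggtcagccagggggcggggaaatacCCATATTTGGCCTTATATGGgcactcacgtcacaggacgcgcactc
The search covered the 250 bases before the RefSeq start of each gene and used the letters TGACGTCA (CRE), TGANTCA (AP-1), CCGGAA (an ETS core), CACGTG (E-box) and TATAAA, together with the CArG box. A CArG box can contain the letters TATAAA, and no other pattern of the search can hold another in full. The table of promoters matched 9 of the 10 genes. The CRE began 143 bases and the E-box 126 bases upstream of the RefSeq start of Dusp1, and the CArG boxes of Dusp5 began 82 and 72 bases upstream of its RefSeq start. Both RefSeq starts lie inside the gene as given with the counts, so the printed stretches end before them. A CRE was found in 1.55% of all 32851 promoter windows and a CArG box in 1.47%. Dusp1 was the only 1 of the 9 with the CRE and Dusp5 the only 1 with a CArG box. An E-box was present in Dusp1 and Dusp2, against 6.02% of all windows. The AP-1, ETS and TATAAA letters were in 6.75%, 12.0% and 12.4% of all windows and in 0 of the 9, which says only that these letters were not in these windows.

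The libraries held 15424451 to 18419287 counts, and those of 1 group differed by more than sampling noise (chi-square per degree of freedom of 5.15 or more). Itga5 (ENSMUSG00000000555, chromosome 15, 103344286 to 103366763, minus strand) was measured at 653, 568 and 599.6 CPM (counts scaled to a common library size by TMM) in the 3 controls and at 49.99, 48.96 and 47.06 CPM in the Myα5KO libraries. It fell by 3.64 on the log2 scale (SE 0.08), so that every library matched its label. The macrophage genes Adgre1, Csf1r, Cd68 and Mertk were present in every library and did not pass the test for a difference, and the cells thus carried the markers of their label. The summed level of the 8 macrophage markers ran from 16943 to 17285 CPM in the controls and from 12004 to 12453 CPM after Itga5 deletion. Most of that sum came from Lyz2, the gene whose locus holds the Cre, and Cd14, both of which were called lower (log2 fold changes of -0.92 and -0.45), whereas Fcgr1 was called higher. The 10 granulocyte markers summed to 187 to 226 CPM and 246 to 372 CPM, 5 of the 8 tested were called higher, and Ly6g had 0 to 2 counts. The 11 fibroblast markers summed to 1730 to 2030 CPM and 1297 to 1688 CPM, with 1 called lower and log2 fold changes below 0 for all 11. The 7 B cell markers summed to 78.2 to 119 CPM and 117 to 192 CPM (2 called higher). The 9 T and NK cell markers summed to 14.1 to 14.7 CPM and 16.2 to 20.8 CPM (1 of 5 tested called higher, Cd3d and Cd3e at 0 to 7 counts), and the 10 cardiomyocyte markers to 23.6 to 25.6 CPM and 14.7 to 18.9 CPM (3 of 8 tested called lower, Myh7 at 0 to 5 counts). The B cell, endothelial, dendritic cell and mast cell and basophil sums overlapped between the groups. By a two-sided exact permutation test, which cannot go below 0.1 with 3 libraries a group, the macrophage, granulocyte, fibroblast, cardiomyocyte and T and NK cell sums reached that p (0.18 after adjustment over 9 lists). The part of these cells in the results below was not tested. In bulk RNA, fewer cells of a type and less RNA per cell cannot be told apart.

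Myα5KO macrophages had more Dusp1 and less Dusp4 transcript than ITGA5 fl/fl macrophages, and no other of the 10 inhibitors passed the test. Dusp1, the most abundant of them, rose by 1.21-fold, and Dusp4 fell to 76.5% of the control level. The result of Dusp1 lay close to the threshold and was kept in 5 of 17 alternative analyses. Dusp4 passed in 11 of the 17, and Dusp5, which narrowly missed the threshold, in 7. Dusp5, Dusp16 and Dusp4 were lower in every Myα5KO library than in any control library, and Dusp1 was higher. Genes were called at an adjusted p of 0.05 or less in the quasi-likelihood test of edgeR, with Benjamini-Hochberg adjustment over all 14522 genes. By this rule 1 of the 10 was called higher, where 3.56% of all tested genes were, and 1 was called lower, where 5.19% were (8.75% in either direction). A single gene is the least that can be counted in a direction among 10, so the counts do not set the group apart from other genes. Groups that did not overlap were seen in 1 of the 10 on the higher side and 3 on the lower side, beside 14.9% and 13.8% of all tested genes (28.6% in either direction). The median log2 fold change was 0.05 over the 10 and 0.01 over all tested genes, with 6 of the 10 above 0 and 4 below. With scaling by library size alone, the calls over all genes were 1212 higher and 518 lower in place of 517 and 754.

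**Figure D1:**
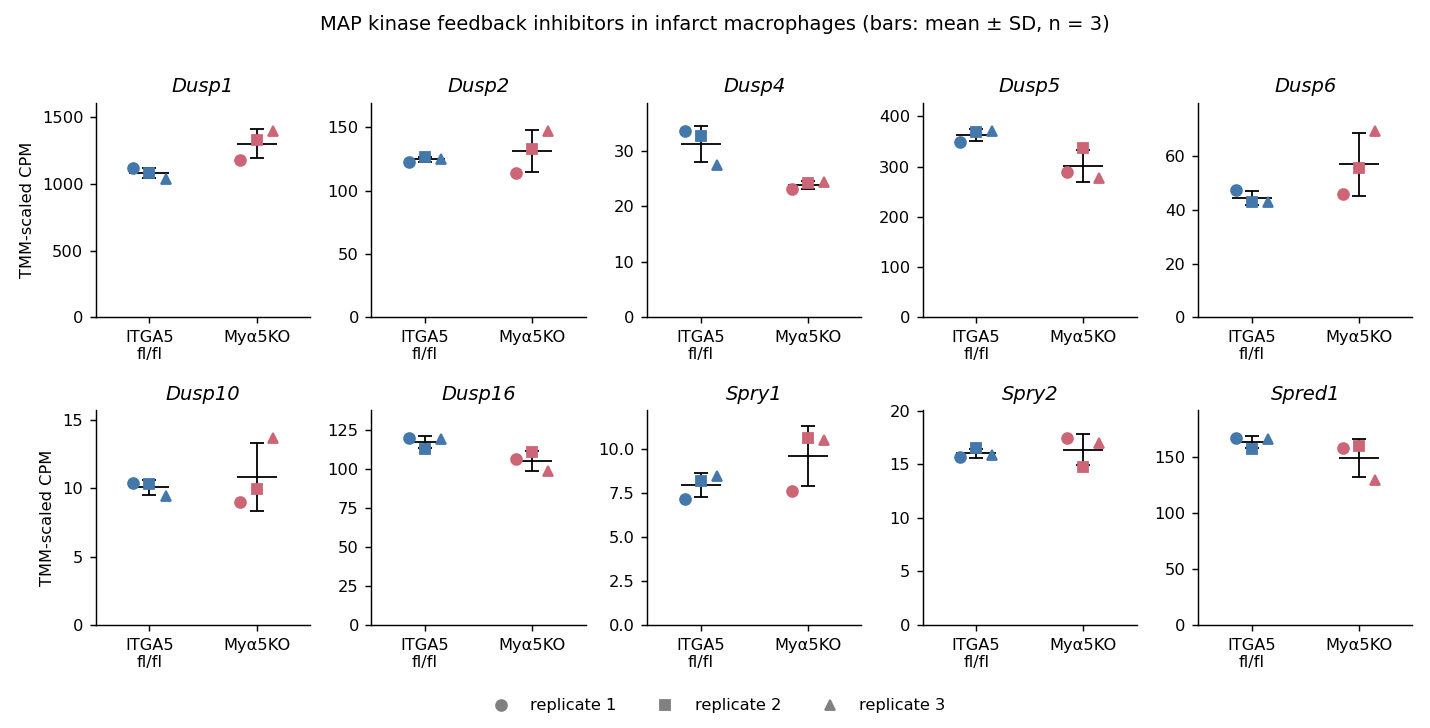
Level of each inhibitor in each library in TMM-scaled CPM on axes that start at 0, with marker shapes for the replicate number and bars for the mean ± SD of 3 libraries. Dusp1 lies higher in all 3 Myα5KO libraries (1184 to 1399 CPM against 1041 to 1117 CPM) and Dusp4 lower in all 3 (23.1 to 24.4 CPM against 27.5 to 33.6 CPM). For Dusp6 and Dusp10, Myα5KO replicate 3 lies well above replicate 1.

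Dusp1 (ENSMUSG00000024190, chromosome 17, 26505590 to 26508519, minus strand) encodes a nuclear phosphatase that acts mainly on p38 and JNK and is induced within minutes of stimulation. Its level was 1117, 1087 and 1041 CPM in control replicates 1, 2 and 3 and 1184, 1328 and 1399 CPM in Myα5KO replicates 1, 2 and 3, from 16669 to 26613 counts per library. All 3 Myα5KO libraries lay above all 3 controls, with replicate 1 closest to them. The means were 1082 ± 38.5 and 1304 ± 109.5 CPM (SD, n = 3 each). Dusp1 rose by 0.27 on the log2 scale (SE 0.08, 95% interval 0.10 to 0.44, edgeR adjusted p = 0.0467), which is close to the threshold. The direction held in 17 of 17 alternative analyses, but the call held in only 5, among them DESeq2 (adjusted p = 0.00532) and limma-voom (0.0395). It was lost when control replicate 1 was left out (log2 fold change 0.29, adjusted p = 0.0804), control replicate 2 (0.27, 0.142) or control replicate 3 (0.24, 0.180), and without Myα5KO replicate 2 (0.25, 0.141) or replicate 3 (0.22, 0.0820). It was also lost with median-ratio scaling (0.26, 0.0554), upper quartile scaling (0.26, 0.0557) and a minimum of 10 counts in every library (0.25, 0.0590), and in the 3 fits on FPKM.

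Dusp4 (ENSMUSG00000031530, chromosome 8, 34807297 to 34819894, plus strand) encodes a close relative of Dusp1 that is likewise nuclear and acts on ERK, JNK and p38. It was measured at 33.6, 32.6 and 27.5 CPM in ITGA5 fl/fl macrophages and at 23.1, 24.1 and 24.4 CPM in Myα5KO macrophages, from 433 to 555 counts. The 3 Myα5KO libraries were nearly alike, and each was below the lowest control, replicate 3. The means were 31.2 ± 3.27 and 23.9 ± 0.714 CPM (SD, n = 3 each). Dusp4 fell by 0.39 on the log2 scale (SE 0.09, 95% interval -0.58 to -0.19, edgeR adjusted p = 0.0194). The direction held in all 17 alternatives and the call in 11. The call was lost without ITGA5 fl/fl replicate 1 (-0.33, adjusted p = 0.0666), ITGA5 fl/fl replicate 2 (-0.35, 0.0831) or Myα5KO replicate 2 (-0.40, 0.0522), and in the 3 fits on FPKM. Spread between the control libraries was wider for Dusp4 than for any of the other nuclear phosphatases, with a coefficient of variation of 10.5%, where counting error alone would give 4.42%.

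Dusp5 (ENSMUSG00000034765, chromosome 19, 53529109 to 53542431, plus strand) encodes a nuclear phosphatase specific for ERK. It was measured at 349, 368 and 371 CPM in ITGA5 fl/fl libraries and at 290.2, 337 and 277 CPM in Myα5KO libraries. All 3 Myα5KO values lay below all 3 controls, with replicate 2 nearest to them. The means were 363 ± 11.9 and 302 ± 31.7 CPM (SD, n = 3 each). The log2 fold change was -0.27 (SE 0.08, 95% interval -0.44 to -0.10), and its edgeR adjusted p of 0.0507 missed the threshold by a narrow margin. Dusp5 was called lower in 7 of 17 alternatives, which include DESeq2 (adjusted p = 0.0153), limma-voom (0.0454), upper quartile scaling (0.0420) and the fit without Myα5KO replicate 2 (-0.36, 0.0202). The fits that did not call it include that with scaling by library size (-0.19, 0.122).

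Dusp2 (ENSMUSG00000027368, chromosome 2, 127336159 to 127338376, plus strand) encodes a nuclear phosphatase found mainly in immune cells. Its level was 123, 127 and 125 CPM in ITGA5 fl/fl libraries and 114, 133 and 147 CPM in Myα5KO libraries. The Myα5KO values spread to both sides of the controls, so the groups overlapped. The log2 fold change was 0.08 (SE 0.08, 95% interval -0.10 to 0.25, edgeR adjusted p = 0.630), and it turned to -0.01 without Myα5KO replicate 3. Within the nuclear group the direction thus differed from gene to gene. The ratio of Dusp1 to Dusp4 in FPKM, looked at after the values were seen and not tested, was 33.8, 33.9 and 38.5 in ITGA5 fl/fl libraries and 52.2, 55.9 and 58.3 in Myα5KO libraries. The ratio of Dusp1 to Dusp5 was 2.93, 2.71 and 2.57 in controls and 3.74, 3.61 and 4.63 in Myα5KO libraries. Neither ratio overlapped between the groups. This had to be so, because Dusp1 was higher and Dusp4 and Dusp5 were lower in every Myα5KO library than in any control. The ratios are therefore no added evidence.

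Dusp6 (ENSMUSG00000019960, chromosome 10, 99263231 to 99267489, plus strand) encodes the cytoplasmic phosphatase of ERK, and its transcript is widely used as a readout of ERK activity. It was measured at 47.4, 42.8 and 43.0 CPM in ITGA5 fl/fl libraries and at 45.9, 55.6 and 69.4 CPM in Myα5KO libraries. Myα5KO replicate 1 lay within the control range and the other 2 lay above it. The log2 fold change of 0.36 was the greatest above 0 among the 10 (SE 0.12, 95% interval 0.11 to 0.61), but Dusp6 was not called (edgeR adjusted p = 0.0747). It was called higher in 4 of 17 alternatives, namely DESeq2 (0.35, 0.0483), scaling by library size (0.44, 0.0289), no count filter (0.37, 0.000392) and the fit without Myα5KO replicate 1 (0.49, 0.00667). Without Myα5KO replicate 3 the log2 fold change was 0.20 (adjusted p = 0.230).

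Dusp10 and Dusp16 encode phosphatases that prefer JNK and p38 over ERK. Dusp10 (ENSMUSG00000039384, chromosome 1, 184013302 to 184075636, plus strand) was measured at 10.4, 10.3 and 9.45 CPM in ITGA5 fl/fl libraries and at 8.94, 9.90 and 13.6 CPM in Myα5KO libraries. Only Myα5KO replicate 3 exceeded the controls. Its log2 fold change was 0.11 (SE 0.15, 95% interval -0.21 to 0.43, edgeR adjusted p = 0.716) and turned to -0.09 without that library. Dusp16 (ENSMUSG00000030203, chromosome 6, 134715468 to 134792625, minus strand) was measured at 119, 113 and 119 CPM in ITGA5 fl/fl libraries and at 106, 110.4 and 98.3 CPM in Myα5KO libraries. Here the groups did not overlap, yet the difference was small. Its log2 fold change of -0.16 (SE 0.07, 95% interval -0.30 to -0.02) was not called (edgeR adjusted p = 0.166) and was not called in any of the 17 alternatives. Genes on the opposite strand overlap Dusp10 (1700056E22Rik, 7 to 17 counts per library), Dusp16 (Gm36328, 3 to 19 counts) and Spry1 (Gm42922, 0 to 3 counts), and the strand setting of the counting is not given in the sources used here, so reads of each pair cannot be told apart.

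Spry1, Spry2 and Spred1 encode membrane-associated proteins that restrain signalling from receptor tyrosine kinases to Ras and Raf, and Spred1 does so by bringing the Ras inhibitor neurofibromin to the membrane. Spry1 (ENSMUSG00000037211, chromosome 3, 37639947 to 37644598, plus strand) was measured at 7.17, 8.16 and 8.48 CPM in ITGA5 fl/fl libraries and at 7.61, 10.6 and 10.5 CPM in Myα5KO libraries. Myα5KO replicates 2 and 3 lay above the controls and replicate 1 within them. The log2 fold change was 0.27 (SE 0.15, 95% interval -0.05 to 0.59, edgeR adjusted p = 0.305), which matches that of Dusp1 in size with a wider interval. Counts of Spry1 were the lowest of the 10, at 107 to 200 per library. Spry2 (ENSMUSG00000022114, chromosome 14, 105891947 to 105896819, minus strand) was measured at 15.7, 16.5 and 15.8 CPM in ITGA5 fl/fl libraries and at 17.4, 14.7 and 17.0 CPM in Myα5KO libraries. Its groups overlapped, and the log2 fold change was 0.03 (SE 0.10, 95% interval -0.18 to 0.25, edgeR adjusted p = 0.882), or -0.02 without Myα5KO replicate 1. Spred1 (ENSMUSG00000027351, chromosome 2, 117121374 to 117182279, plus strand) was measured at 167, 157 and 167 CPM in ITGA5 fl/fl libraries and at 159, 160.5 and 129.9 CPM in Myα5KO libraries. Myα5KO replicate 3 alone lay well below the controls. The log2 fold change was -0.13 (SE 0.08, 95% interval -0.30 to 0.04, edgeR adjusted p = 0.365) and came to -0.04 without that library.

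The remaining DUSP, Sprouty and Spred genes of the same families were compared in the same fit. Of these 7, 6 were tested, and 1 was called lower and 0 higher, beside 5.19% and 3.56% of all tested genes. On the higher side 1 reached an unadjusted p under 0.05 (DESeq2 and limma-voom also called 0 higher). The median log2 fold change of the 6 was -0.19. Spred2, a relative of Spred1 with the same action on Ras, was measured at 58.7, 53.5 and 54.7 CPM in ITGA5 fl/fl libraries and at 43.5, 43.7 and 29.0 CPM in Myα5KO libraries. All 3 Myα5KO values lay below the controls, with replicate 3 the lowest, as it was for Spred1. Spred2 fell by 0.52 on the log2 scale (SE 0.12, edgeR adjusted p = 0.0189) and was called in 12 of 17 alternatives. The call was lost without ITGA5 fl/fl replicate 1 (-0.48, adjusted p = 0.0548) or replicate 3 (-0.53, 0.0564). Dusp8, a phosphatase of JNK and p38, had a log2 fold change of 0.33 (adjusted p = 0.170), which came to 0.49 (0.0117) without Myα5KO replicate 1 and 0.15 (0.509) without replicate 3. Spry4 (-0.27), Spred3 (-0.24), Dusp9 (-0.14) and Dusp7 (0.03) were not called. Without ITGA5 fl/fl replicate 1 the log2 fold change of Spry4 came to -0.14 and that of Spred3 to -0.40. Spry4 came to -0.17 without Myα5KO replicate 1 and -0.46 without replicate 3, and Spred3 to -0.14 without ITGA5 fl/fl replicate 2. Spry3, at 1 to 10 counts per library, was not tested.

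**Figure D2:**
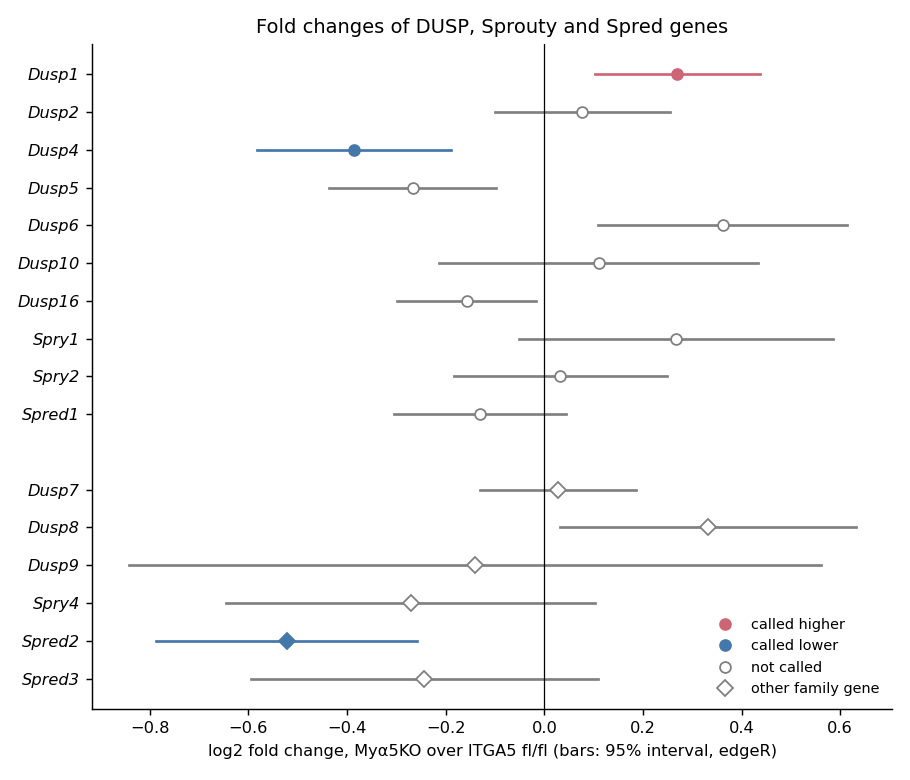
Log2 fold change of each inhibitor (circles) and of the 6 tested relatives (diamonds), Myα5KO over ITGA5 fl/fl, with the 95% interval of the edgeR fit and filled symbols for called genes. Dusp1 (0.27) is the only gene called higher, and Dusp4 (-0.39) and Spred2 (-0.52) are called lower. The intervals of Dusp5, Dusp6, Dusp16 and Dusp8 also lie to 1 side of 0, without a call after adjustment.

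Levels of different genes were compared in FPKM, which divides the count by the length of the gene. Dusp1 was the most abundant of the 10 with a mean of 439 FPKM over the 6 libraries (range 385 to 509.9), and it ranked 83 among 27687 genes with a count. It made up 61.6% of the summed FPKM of the 10. Next came Dusp5 (mean 134 FPKM), Dusp2 (63.5), Spred1 (23.0), Dusp6 (16.1), Dusp16 (14.1), Dusp4 (9.99), Spry2 (7.71), Dusp10 (3.41) and Spry1 (2.99). The nuclear phosphatases Dusp1, Dusp5 and Dusp2 thus stood at the top, and the highest mean level was 147 times the lowest. Most neighbours in this order kept it in every library. Spred1 lay above Dusp6 in 5 of 6 libraries, with Myα5KO replicate 3 as the exception (18.8 against 21.8 FPKM), and the gap between their means (6.90 FPKM) was larger than their SDs over the 6 libraries together (5.30 FPKM). The order of Dusp6 and Dusp16 split by genotype. Dusp16 was above Dusp6 in all 3 ITGA5 fl/fl libraries (15.3, 14.3 and 15.2 against 15.1, 13.6 and 13.7 FPKM), and Dusp6 was above Dusp16 in all 3 Myα5KO libraries (14.6, 17.7 and 21.8 against 13.6, 14.1 and 12.4 FPKM). This split was looked at after the values were seen and was not tested. Dusp10 lay above Spry1 in 5 of 6 libraries, Myα5KO replicate 2 being the exception, and their means (3.41 and 2.99 FPKM) did not differ beyond their spread.

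**Figure D3:**
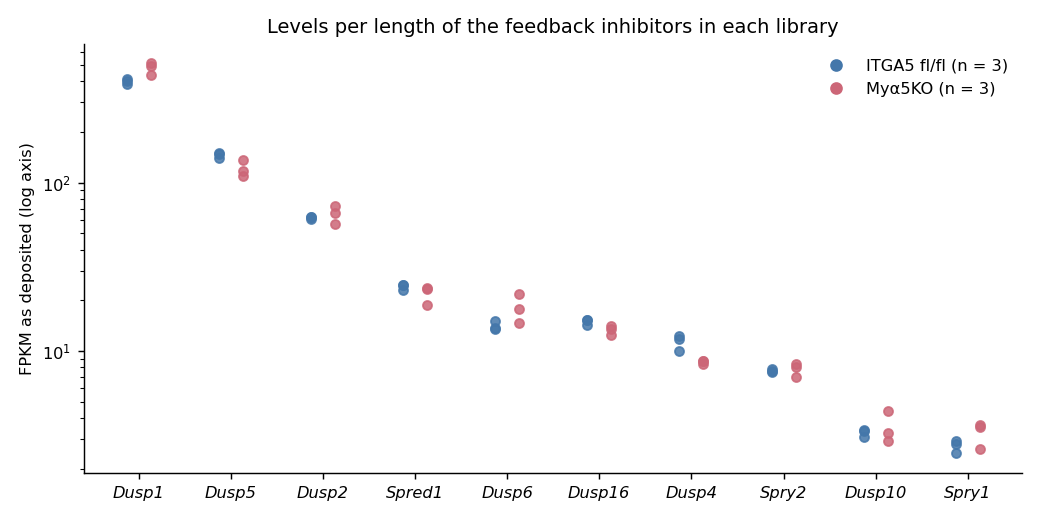
Level of each inhibitor in FPKM as deposited, on a log axis, with 1 point per library for ITGA5 fl/fl (n = 3) and Myα5KO (n = 3), in the order of the mean. Dusp1 lies between 385 and 509.9 FPKM, above every other gene in every library, and Spry1 lies between 2.46 and 3.63 FPKM. The points of Dusp6 and Dusp16 overlap.

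Myα5KO libraries differed among themselves more than the controls did for 9 of the 10 genes, Dusp4 being the exception. For Dusp6 the coefficient of variation was 5.85% among controls and 20.6% among Myα5KO libraries, where counting error would give 3.70% and 3.05%. For Dusp10 it was 5.13% and 22.8%, with 7.78% and 7.00% from counting. Myα5KO replicate 3 held the highest value of its group in 5 of the 10 genes and the lowest in 3, and replicate 1 held the lowest in 6. Immediate early genes are switched on within minutes by MAP kinases and other stimuli and also during the enzymatic digestion of tissue. Their sum rose from Myα5KO replicate 1 to replicate 3, as did Dusp1, Dusp2, Dusp4, Dusp6 and Dusp10. Dusp5, Dusp16, Spry1, Spry2 and Spred1 did not follow that order. As a percentage of the control mean, the sum of 16 immediate early genes was 104, 126 and 144 in Myα5KO replicates 1, 2 and 3, and 95.7 to 104 in the controls. Dusp1 stood at 109.5, 123 and 129, and Dusp6 at 103, 125 and 156. Dusp4, which was called lower, stood at 73.8, 77.3 and 78.1. In control replicates 1, 2 and 3 the immediate early sum was 100.4, 103.8 and 95.7, an order that Dusp1, Dusp4 and Dusp6 did not share. There Dusp1 stood at 103.3, 100.5 and 96.2, Dusp4 at 107.6, 104.4 and 88.0, and Dusp6 at 106.8, 96.5 and 96.8. The sum of 8 heat shock genes, which also respond to digestion, was 98.3, 123 and 134 in the Myα5KO replicates, against 93.9 to 109 in the controls. None of the 8 was called with all 6 libraries, and 6 were called higher without Myα5KO replicate 1. The part of both lists in the values of the 10 genes was not tested.

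**Figure D4:**
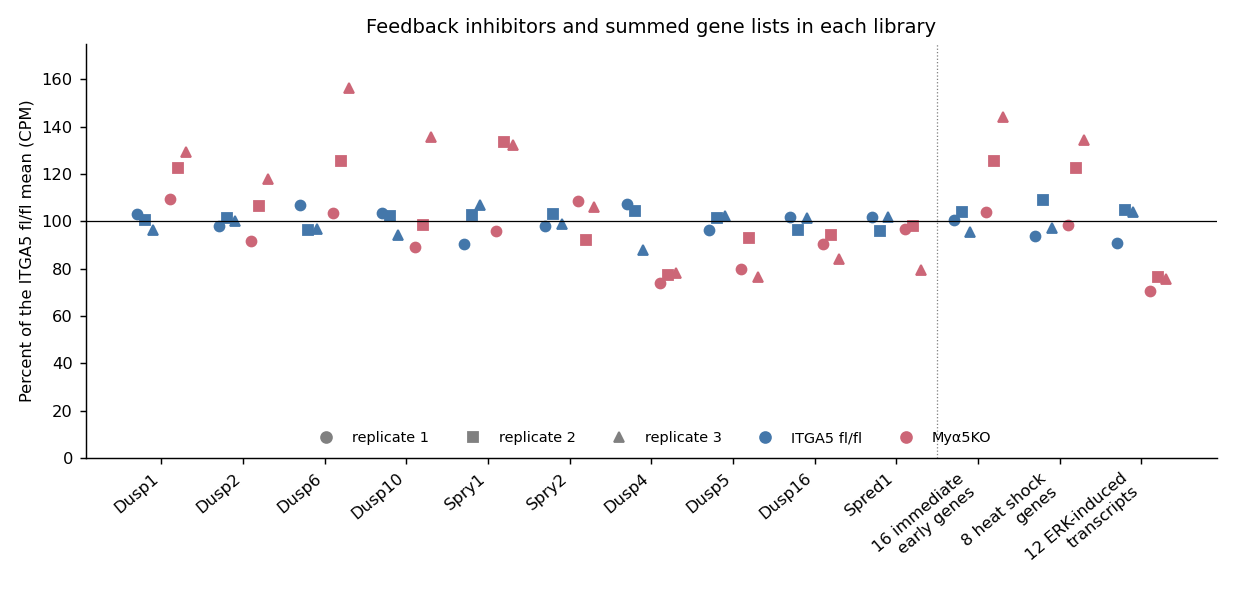
Level in each library as a percentage of the ITGA5 fl/fl mean in CPM, for the 10 inhibitors and for 3 summed gene lists right of the dotted line, with marker shapes for the replicate number. In Myα5KO libraries the immediate early sum (104 to 144%) and the heat shock sum (98.3 to 134%) are lowest in replicate 1 and highest in replicate 3, as are Dusp1 (109.5 to 129%) and Dusp6 (103 to 156%). Dusp2, Dusp4 and Dusp10 share that order, and Dusp5, Dusp16, Spry1, Spry2 and Spred1 do not. The sum of ERK-induced transcripts lies at 70.7 to 76.4% in all 3.

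Genes of the kinase cascades, further inhibitors, immediate early genes, ERK-induced transcripts and heat shock genes were grouped into lists by role. Together, 113 of them were tested. Of these, 12 were called higher and 13 lower, beside 3.56% and 5.19% of all tested genes. Without ITGA5 fl/fl replicate 3 only 5 of the 113 were called higher, and without Myα5KO replicate 1 it was 24. Most of the higher calls were immediate early genes, where 7 of 16 were called higher and 0 lower (0 at an unadjusted p under 0.05, and 0 with DESeq2 and limma-voom), with a median log2 fold change of 0.41. Without ITGA5 fl/fl replicate 3 only 2 of the 16 were called, and without Myα5KO replicate 1 it was 12. The 3 fits on FPKM each called only 1 of the 16 higher. The 4 with the smallest adjusted p were the transcription factor genes Egr3 (0.82, adjusted p = 0.000109), Nr4a1 (0.42, 0.00972) and Fos (0.55, 0.00987) and the growth inhibitor Btg2 (0.65, 0.00495). Egr3 stood at 17.1, 17.7 and 17.4 CPM in ITGA5 fl/fl libraries and at 29.8, 31.3 and 30.8 CPM in Myα5KO libraries, with little spread in either group. The calls of Nr4a1 and Fos were lost without ITGA5 fl/fl replicate 3 (0.36 and 0.49 on the log2 scale). Those of Nr4a1, Fos and Btg2 were also lost in the fits on FPKM. Egr3 was called in 17 of 17 alternatives.

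Among 12 transcripts listed here as readouts of ERK activity, lower calls outnumbered higher calls. The list was chosen with earlier results of these data known, so its counts are no independent evidence of a direction. Of 12 tested, 6 were called lower and 1 higher, beside 5.19% and 3.56% of all tested genes. The median log2 fold change of the 12 was -0.39, with 4 above 0 and 8 below. The fits on FPKM called 3 of the 12 lower, or 1 without a filter. Plaur, the receptor of urokinase, was measured at 452, 479 and 482 CPM in ITGA5 fl/fl libraries and at 304, 307 and 315 CPM in Myα5KO libraries. Its groups were far apart, and it fell by 0.61 on the log2 scale (edgeR adjusted p = 0.000153), a call made in 17 of 17 alternatives. Fosl1, an AP-1 subunit, fell by 1.12 (adjusted p = 0.000862), and Ier3, a stress-induced gene, fell by 0.41 (0.00584). Ccnd1, which encodes cyclin D1, rose by 0.46 (0.00387). Dusp4 was lower, like those 6. Dusp6, also used as such a readout, was not called, and its log2 fold change of 0.36 went the other way. Etv5, another of the 12, was not called in the main fit. It was called higher with library-size scaling (0.36, adjusted p = 0.0181), without a count filter (0.29, 0.0367) and without ITGA5 fl/fl replicate 2 (0.36, 0.0429). It is named here after its values were seen. Immediate early genes, also switched on by MAP kinases, were counted in their own list above.

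Of the kinases themselves, 5 of the 43 tested in 5 cascade lists were called (11.6%, beside 8.75% of all tested genes). Of the 43, 1 was called higher (2.33%, beside 3.56%) and 4 lower (9.30%, beside 5.19%). A single gene is the least that can be counted in a direction, so 1 call does not set a list apart. In the p38 cascade, 1 of 9 was called higher and 1 lower. DESeq2 called 3 of the 9 lower, adding Mapkapk2 (-0.19, adjusted p = 0.0398) and Mapkapk3 (-0.25, 0.0346), which encode kinases activated by p38. The fit without a count filter called Mapkapk3 in addition, and the fit on FPKM without a filter called 0 of the 9. Both genes are named here after their values were seen. Mapk14, the main p38 kinase, rose by 0.32 (adjusted p = 0.00748) and Map2k3, a kinase that activates it, fell by 0.51 (0.00142). In the Ras-ERK cascade 1 of 17 was called, the Raf kinase Braf, which fell by 0.53 (0.0104), and 0 were called higher (0 at an unadjusted p under 0.05, and 0 with DESeq2 and limma-voom). Map3k2, at the head of the Erk5 cascade, fell by 0.28 (0.0267) and was the 1 of 4 called there. Of the 6 fits that leave out a library, only that without Myα5KO replicate 1 kept the call (-0.31, adjusted p = 0.0286), and the log2 fold changes of the others lay between -0.31 and -0.22. Map3k14, which activates the non-canonical NF-κB pathway, fell by 0.43 (0.00858) and was the only 1 called of 7 further kinases at the head of cascades. In the JNK cascade 0 of 6 tested genes were called in either direction by edgeR, and 0 were so by DESeq2, by limma-voom or at an unadjusted p under 0.05.

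Other inhibitors of Ras and MAP kinases did not go 1 way. Of 19 tested, 2 were called higher and 2 lower, beside 3.56% and 5.19% of all tested genes. The median log2 fold change of the 19 was 0.02. With library-size scaling 5 were called higher and 1 lower. Ptpn6, which encodes the phosphatase SHP-1, rose by 0.53 (adjusted p = 0.00043), and Dok3, an adaptor that restrains signalling from immune receptors, rose by 0.33 (0.0158). Errfi1, an inhibitor of the EGF receptor, fell by 0.60 (0.00061), and Rasa2, a GTPase-activating protein of Ras, fell by 0.33 (0.0332). The call of Dok3 was lost without ITGA5 fl/fl replicate 2 (0.33, adjusted p = 0.0663) or replicate 3 (0.30, 0.0751). That of Rasa2 was kept, among the 6 fits that leave out a library, only without Myα5KO replicate 2 (-0.42, 0.0186). Atypical DUSPs lack the domain that binds MAP kinases. Of 9 tested, Dusp22 was called higher (0.37, 0.0344), a call that only the fits without ITGA5 fl/fl replicate 2 (0.45, 0.0363) or Myα5KO replicate 2 (0.42, 0.0494) kept among those 6. It was also lost with the replicate number as a block (0.37, 0.0563) and in the 3 fits on FPKM. No atypical DUSP was called lower (0 also with DESeq2 and limma-voom), though 1 reached an unadjusted p under 0.05. The 8 heat shock genes had 0 calls in either direction with edgeR, DESeq2 or limma-voom, with 4 above 0 at an unadjusted p under 0.05 and a median log2 fold change of 0.25. Without Myα5KO replicate 1, however, 6 of the 8 were called higher, and without a count filter it was 5. Hspa1a alone was called with library-size scaling (0.67, adjusted p = 0.0446) and with the replicate block (0.55, 0.0429). It is named here after its values were seen, and it has a near-identical copy, Hspa1b, from which its reads may not be separable.

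**Figure D5:**
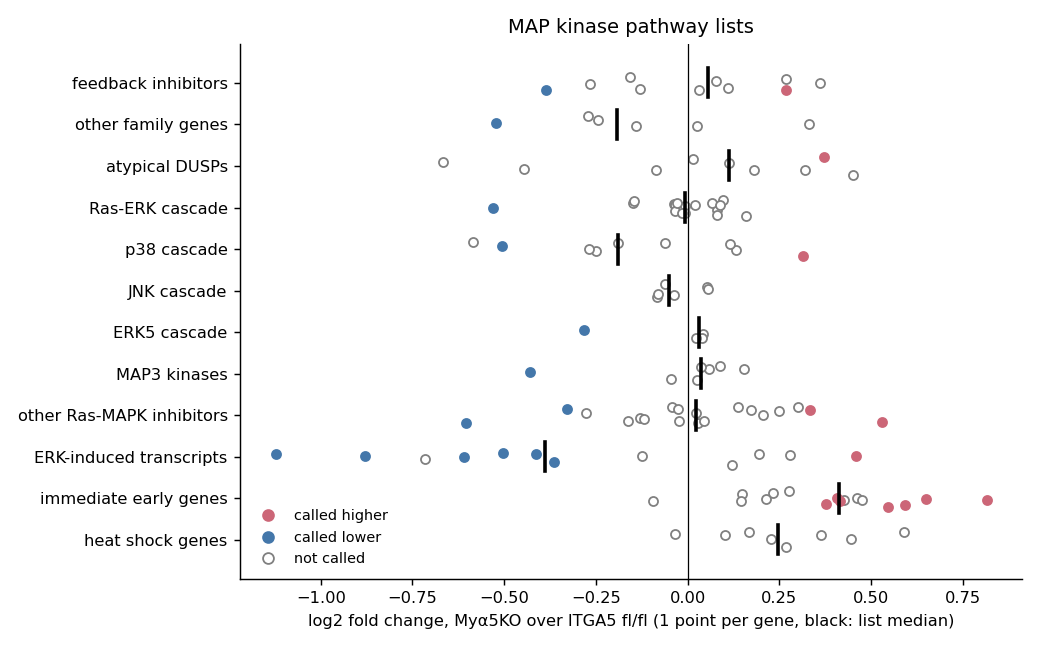
Log2 fold change of every tested gene of the inhibitors and of 11 further lists, Myα5KO over ITGA5 fl/fl, with filled points for called genes and a black bar for the median of each list. Medians lie near 0 for the feedback inhibitors (0.05) and most cascades, at 0.41 for immediate early genes and at -0.39 for ERK-induced transcripts.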

How the data were processed

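RNA-seq was performed in the study on polyadenylated RNA of Ly6G- CD11b+ cardiac cells, 3 libraries per genotype, sequenced as read pairs. Per the submitters' processing notes, TopHat2 2.0.9, HTSeq 0.6.1 and Cufflinks 2.1.1 were used with the mouse build GRCm38.p6. The deposited counts are whole reads per gene without normalization. The authors also deposited FPKM values, which were found to be the counts over gene length, divided by 1 scaling constant in each library. Settings for strand and multi-mapped reads are not given in the sources used here.

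Groups and replicate numbers come from the sample titles. The counts were fitted with edgeR 4.0.16 in R 4.3.3 (quasi-likelihood test, TMM scaling, default filter with a minimum count of 10 and a minimum total of 15, no covariate), p-values are two-sided and positive fold changes mean more transcript in Myα5KO macrophages. The study's methods name DESeq2 without its design. All 10 inhibitors, Itga5, the tested relatives and, per list, the 4 called genes with the smallest adjusted p are named, and Cd14, Lyz2, Fcgr1 and the marker genes given by their counts were named after their values were seen. The genes and all lists were chosen with earlier results of these data known, so they are no independent evidence of a direction. Marker sums were compared by an exact two-sided permutation test. Totals per library were 15424451 to 18419287 counts. Amplified reads were counted with no molecular identifiers, so precision refers to counting error only.

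The 17 alternatives were DESeq2 1.42.0, limma-voom (limma 3.58.1), limma on log2(FPKM + 1) and log2(FPKM + 0.1) where 3 or more libraries had an FPKM of 1 or higher, and on log2(FPKM + 1) without that filter, the edgeR fit with scaling by median ratio, by upper quartile or by library size, without a filter, with 10 or more counts required throughout, or with the replicate number as a block, and each of the 6 libraries left out in turn. The edgeR fit was tested on simulated data of 14522 genes, of which its filter kept 14307, with 200 changed. It recovered 56.9% of 58 genes changed by 0.5 on the log2 scale, 78.3% of 69 changed by 1 and 97.3% of 73 changed by 2, with 12 false among 170 calls. Promoter sequence was taken from RefSeq (GRCm38.p6), and protein sequence was not used here.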

Additional observations from a re-analysis of the deposited data

How the results depend on the processing

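With 3 libraries per group, the adjusted p of Dusp1, Dusp5 and Dusp6 lay near the threshold, and their calls moved with the settings. The directions of Dusp1, Dusp4, Dusp5, Dusp6, Dusp16, Spry1, Spred1 and Itga5 held in all 17 alternatives. Of the 10 inhibitors, 1 was called higher and 1 lower in the analysis as reported. DESeq2 and the fit without a count filter called 2 and 2, limma-voom called 2 lower, upper quartile scaling and the minimum of 10 counts in every library called 0 higher and 2 lower, median-ratio scaling called 0 higher, library-size scaling called 2 higher, and the 3 fits on FPKM called 0 and 0. Each of these fits with 0 higher calls had 2 at an unadjusted p under 0.05 (1 on FPKM without a filter), and each fit on FPKM had 3 lower. Fits without 1 library called 0 to 2 higher and 0 to 1 lower, and those that called 0 had 1 to 3 at an unadjusted p under 0.05 in that direction.

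Over all genes, 1271 were called (517 higher, 754 lower). The fit on log2(FPKM + 1) called 472 (150 higher, 322 lower), that on log2(FPKM + 0.1) 448 (142 and 306), and that without a filter 10 (2 and 8). Library-size scaling called 1212 higher and no count filter 798 higher, a fit whose prior degrees of freedom were infinite. Fits without 1 library called 616 to 1091, with 187 to 420 higher and 429 to 671 lower. Over the 113 genes of the lists, 12 were higher and 13 lower. The fits on FPKM called 4 and 5 with either pseudocount and 1 and 1 without a filter, library-size scaling called 21 higher and no count filter 26 higher. Fits without 1 library called 5 to 24 higher and 9 to 12 lower. The log2 fold change of Itga5 lay between -3.69 and -3.58 in those fits.

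Among the 10 inhibitors, their 6 tested relatives, Itga5 and the pathway genes named by rule, directions turned only in fits without 1 library. The named marker genes were not refitted. Across those 6 fits the log2 fold change lay between -0.012 (without Myα5KO replicate 3) and 0.1639 for Dusp2, between -0.09 (without Myα5KO replicate 3) and 0.2252 for Dusp10, between -0.0187 (without Myα5KO replicate 1) and 0.1002 for Spry2, and between -0.0141 (without ITGA5 fl/fl replicate 2, -0.0016 without Myα5KO replicate 2) and 0.0491 for Dusp7. For Dusp9, at -0.14 as reported, it lay between -0.338 and 0.18 (without ITGA5 fl/fl replicate 1, 0.0088 without Myα5KO replicate 3). The causes were not tested. With library-size scaling the marker sums differed between Myα5KO and ITGA5 fl/fl by -3981 CPM (macrophage), 46.2 (endothelial), -7.04 (cardiomyocyte), 5.77 (T and NK cell) and 15.2 (dendritic cell).

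The groups share replicate numbers, but same-numbered libraries did not deviate together (correlations of 0.05, -0.07 and 0.04). Libraries with different numbers gave values between -0.11 and 0.08. With 3 libraries per group, these values cannot tell whether same-numbered libraries were prepared together. With the replicate number as a block, 0 of the 10 inhibitors were called higher (2 at an unadjusted p under 0.05) and 2 lower. Dusp1 was then not called (0.27, adjusted p = 0.0845) and Dusp5 was called (-0.27, 0.0481). Dusp22 was not called (0.37, 0.0563), and 1 heat shock gene, Hspa1a, was (0.55, 0.0429).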
